A study of Mus musculus with 12 samples.

Results

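The actin cytoskeleton and motility genes are a set of 40 mouse genes chosen by name and function, of which 39 had a row among the 23621 gene symbols counted in neutrophil RNA. The remaining one, Cfl1, which encodes the filament-severing protein cofilin, was not analysed here. All 39 passed the filter on low counts that 10604 genes passed, and they fell into 7 classes: actin and its monomer-binding proteins (6 genes), the Arp2/3 complex (7), capping, severing and bundling proteins (6), nucleation promoters and elongators (7), myosin subunits (6), small GTPases and their activators (5), and the 2 genes Palld and Emp3. The RNA-seq libraries came from female Balb/c mice at 8 weeks of age and formed 3 groups of 4: low-density neutrophils (LDN) and high-density neutrophils (HDN), both from the peripheral blood of mice bearing liver metastases, and neutrophils from the bone marrow of naive mice (Naive). The title of the study places it in breast cancer that spreads to the liver and describes the low-density cells as immature, while the labels used here name neither the tumour cells nor the number of animals behind a library. LDN against HDN compares 2 density fractions of peripheral blood, whereas either blood fraction against Naive also compares blood with marrow and tumour-bearing with tumour-free mice, which cannot be told apart.

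Neutrophils crawl by assembling actin filaments at their leading edge and contracting them with myosin at their rear. Actin monomers are held in reserve by thymosins and profilin, new filaments branch from old ones at the Arp2/3 complex when proteins of the WASP and WAVE families switch it on, formins and Ena/VASP proteins lengthen filaments, and capping proteins stop their growth. The GTPases Rac and Cdc42 direct assembly at the front.

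The libraries held 18113922 to 30044508 counts, and all 12 listed neutrophil markers lay above a floor of 3 reads in every library. The scaling factor that edgeR's TMM method gave each library ranged from 0.825 to 0.927 in LDN, 1.01 to 1.28 in HDN and 0.943 to 1.09 in Naive. HDN 7, with the factor of 1.28, stood apart and was the lowest HDN library for 32 of the 39 genes. Levels of other cell types' markers moved with the groups too. Summed over 11 platelet markers they were 29.0 to 34.3 CPM in LDN, 10.6 to 12.2 CPM in HDN and 114 to 125 CPM in Naive. Gp6, at 0 in HDN, held at most 1 read in any library. The integrin gene Itgb3 gave most of the platelet sum in LDN and Naive, at 26.5 CPM in LDN, 3.54 CPM in HDN and 113 CPM in Naive, while Itga2b stood at 2.31 CPM in LDN, 6.84 CPM in HDN and 2.59 CPM in Naive. Over 10 monocyte and macrophage markers the sums were 354 to 528 CPM in LDN, 356 to 559 CPM in HDN and 621 to 830 CPM in Naive, with C1qa and C1qb at 0 in HDN. The similar sums in LDN and HDN hid opposite differences. At an edgeR adjusted p under 0.05, 7 of these 10 were higher in LDN than in HDN and 1 lower, beside 26% and 20.3% of all genes tested. Fn1 averaged 176 CPM in LDN and 12.6 CPM in HDN, whereas Csf1r averaged 122 CPM in LDN and 367 CPM in HDN. The Naive sum came mostly from Ly6c2 and Csf1r, which averaged 359.7 and 319 CPM there. In contrast, Fn1, F13a1 and Ccr2 had their lowest means in Naive. Of the 10 markers, 4 were higher in LDN than in Naive and 4 lower. Over 5 T cell markers the sums were 31.8 to 47.5 CPM in LDN, 3.47 to 17.9 CPM in HDN and 192 to 266 CPM in Naive, mostly from Cd3d. Cd3d averaged 34.7 CPM in LDN, 8.11 CPM in HDN and 214 CPM in Naive. Cd3g was also highest in Naive, at 2.56 CPM. In contrast, Cd3e, Cd4 and Cd8a had their lowest means in Naive, at 0.0876, 0.156 and 0.0254 CPM. B cell markers summed to 1.26 to 6.03 CPM in LDN, 0.305 to 2.06 CPM in HDN and 16.2 to 43.8 CPM in Naive, natural killer cell markers to at most 2.71 CPM in any library. Red cell markers summed to at most 0.138 CPM in LDN, 0.420 CPM in HDN and 6 CPM in Naive, with Hba-a1, Hbb-bs and Hbb-bt at 0 in all libraries. Eosinophil and basophil markers summed to 14.1 to 23.2 CPM in LDN, 39.5 to 84.4 CPM in HDN and 14.3 to 64.8 CPM in Naive. Siglecf gave most of this in LDN and HDN, averaging 17.6 and 63.1 CPM, and Prg2 averaged 26.1 CPM in Naive. Epx and Cpa3 were at 0 in HDN, and Cpa3 held at most 5 reads in any library. Endothelial and stromal markers summed to 15.4 to 23.8 CPM in LDN, 3.51 to 11.8 CPM in HDN and 4.74 to 6.66 CPM in Naive. Pecam1 gave nearly all of this, averaging 20.5 CPM in LDN, 7.77 CPM in HDN and 5.56 CPM in Naive. Col1a1, Col1a2, Col3a1 and Dcn were at 0 in LDN and HDN, and each held at most 5 reads in any Naive library. Summed neutrophil markers themselves stood at 200496 to 263219 CPM in LDN, 82167 to 133679 CPM in HDN and 207836 to 241183 CPM in Naive. The part of these differences in the results that follow was not tested. The column headers also mark all LDN and HDN libraries, and no Naive library, with the same tag, so that tag cannot be told apart from the tissue.

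Levels are given in CPM, read counts relative to each library's TMM-scaled total, in the order of libraries 3, 4, 5 and 7 for LDN and HDN and 1, 2, 3 and 4 for Naive. A gene was called where edgeR's quasi-likelihood test, fitted to all 12 libraries, gave a Benjamini-Hochberg adjusted p under 0.05 over the 10604 genes. Whether each library stands for its own animal is not in the labels, so the p-values speak only of the spread among these samples, which may be technical. In such bulk RNA, fewer cells of a type and less RNA per cell cannot be told apart.

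Most of the actin cytoskeleton genes were higher in LDN than in HDN. Of the 39 genes, 25 were higher in LDN, 0 were lower and 14 were not called, where 26% of all genes tested were higher, 20.3% lower and 46.3% one or the other. Called genes rose by 1.28- to 4.96-fold, led by the capping protein gene Capg, the thymosin gene Tmsb10 and Emp3. The median log2 fold change over the 39 was 0.57, beside 0.02 over all genes tested. In 29 of the 39 the LDN and HDN libraries did not overlap, where 39.2% of all genes had groups that did not overlap. Beside the 0 lower genes of edgeR, where an unadjusted p under 0.05 also gave 0, limma-voom called 0 and DESeq2 called 1, Diap1 (adjusted p = 0.0277). Without HDN 7, Diap1 and Wipf1 were lower (adjusted p = 0.0361 and 0.0439).

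This count moved with the scaling of the libraries. With plain total counts, 19 of the 39 were higher in LDN and 3 (Wipf1, Diap1 and Rhoa) were lower, while the background moved to 16.8% higher and 34.7% lower and the median of all genes to -0.28. With trimmed library sizes, which leave out the 20 most abundant genes, 25 were higher and 2 (Wipf1 and Diap1) lower. Relative to the median of all genes, the median of the 39 stood 0.55 to 0.56 higher under these scalings. A change of scaling shifts all genes by nearly the same amount, so this difference could hardly move. Libraries 3, 4, 5 and 7 carry the same numbers in LDN and HDN. Deviations of same-numbered libraries from their group means correlated at r 0.31 to 0.76, but other pairs reached 0.41. A fit with the library number as a block called 29 higher in LDN, adding Coro1a, Actr2, Capza1 and Lcp1 with adjusted p from 0.00291 to 0.0416. Fitting LDN and HDN alone left 20 higher and ended the calls of Actb, Tmsb4x, Arpc3, Gsn and Cdc42 (adjusted p = 0.0508 to 0.0964).

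**Figure D1:**
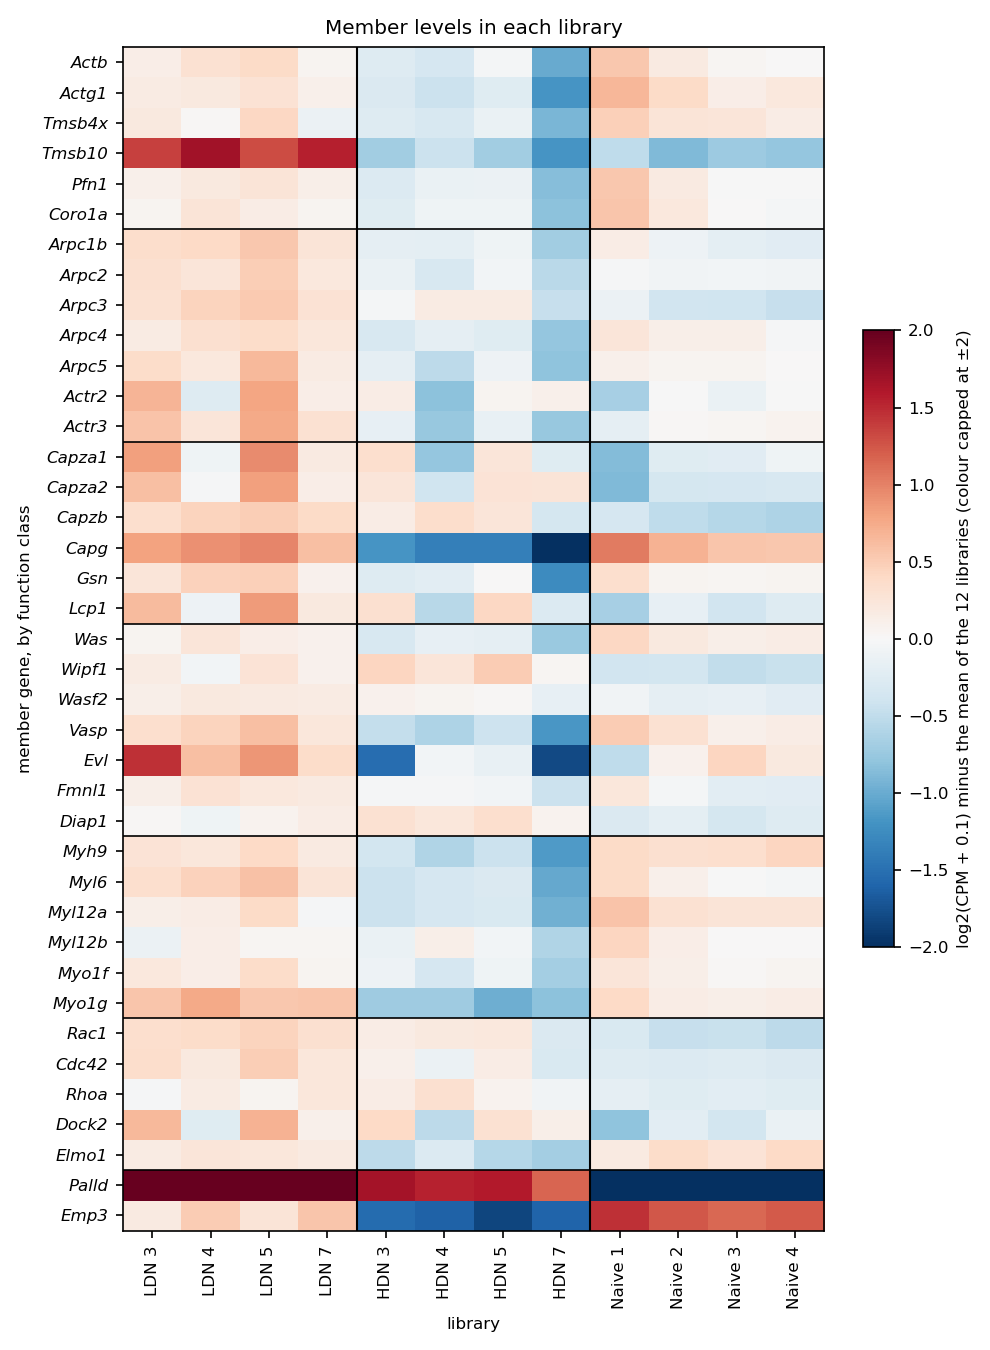
Level of each of the 39 genes in the 12 libraries, as log2(CPM + 0.1) minus the gene's mean over all libraries, with colour held at ±2. Rows are grouped by function class and columns run LDN, HDN, Naive. Most rows are above their mean in LDN and below it in HDN, HDN 7 is the lowest HDN library for 32 rows, and Palld is near its floor in all 4 Naive libraries.

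Many of these genes were lower in HDN than in Naive marrow cells. Of the 39, 18 were lower in HDN, 7 were higher and 14 were not called, where 29.9% of all genes tested were lower, 30% higher and 59.8% one or the other. Emp3, Capg, Myo1g, Myh9 and Vasp fell furthest in HDN, and the 7 higher were Palld, Wipf1, Capzb, Capza2, Diap1, Rac1 and Rhoa. The median log2 fold change was -0.39, beside 0.04 over all genes. The 2 groups did not overlap in 23 of the 39, or 5 higher and 18 lower in HDN, where 53.3% of all genes did not overlap. Leaving out Naive 1, the highest Naive library for 27 of the 39, left 13 lower. With trimmed library sizes 5 were higher and 23 lower, against 23.5% and 34.7% of all genes. That fit added Arpc1b, Arpc2, Gsn, Fmnl1 and Myl12b to the lower genes and dropped Capza2 and Rhoa from the higher ones. Plain total counts gave 10 higher and 20 lower, adding Arpc3, Cdc42 and Wasf2 as higher and Gsn and Myl12b as lower.

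LDN mostly stood level with Naive or above it. Of the 39, 18 were higher in LDN, only Emp3 was lower and 20 were not called, where 27.4% of all genes tested were higher, 26.8% lower and 54.2% one or the other. Among the higher genes, Palld and Tmsb10 showed the largest differences, followed by Capzb, Capza2, Capza1, Lcp1 and Rac1. The median log2 fold change was 0.31, beside 0.01 over all genes, and the 2 groups did not overlap in 19 of the 39, where 55.3% of all genes did not overlap. These counts moved with the processing. Without LDN 5, the highest LDN library for 27 of the 39, 11 were higher and 1 lower. With plain total counts 9 were higher and 9 lower, and with trimmed library sizes, which leave out Actb, Tmsb4x, Lcp1 and Myh9 among others, 8 were higher and 10 lower. Both called Actg1, Tmsb4x, Coro1a, Was, Myh9, Myl12a, Myl12b and Elmo1 lower beside Emp3, and trimmed sizes also Pfn1. Under these 2 scalings 18.9% and 17.4% of all genes were higher, 34.2% and 37.4% were lower, and their median moved to -0.22 and -0.28. Relative to the median of all genes, the median of the 39 was 0.30 higher in LDN under each of the 3 scalings. As with HDN, a change of scaling could hardly move this difference.

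**Figure D2:**
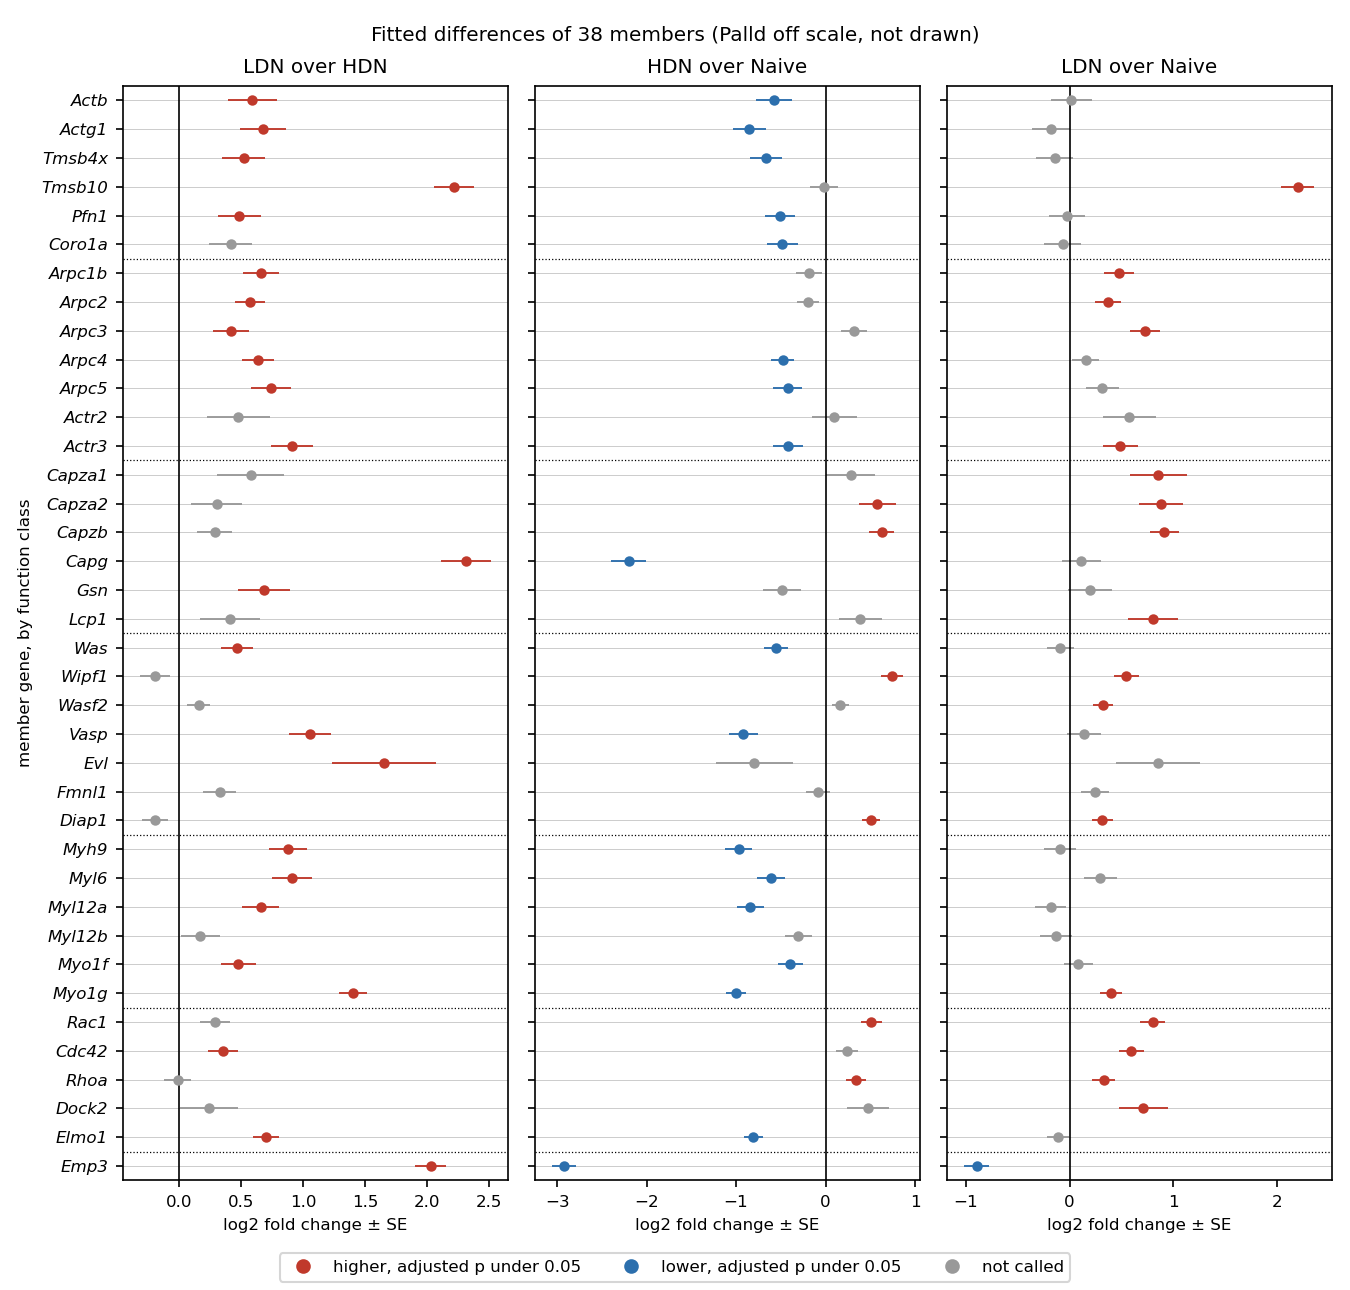
Log2 fold change ± SE of each gene except Palld, which lies off the scale, for LDN over HDN, HDN over Naive and LDN over Naive. Red marks genes higher and blue genes lower at an adjusted p under 0.05, and grey marks genes not called. For LDN over HDN no point is blue, and for HDN over Naive 18 are.

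Of all counts, the 39 genes took 5.69% ± 0.288 in LDN, 4.76% ± 0.497 in HDN and 5.999% ± 0.156 in Naive (SD, n = 4 each). Actin and its monomer-binding proteins took 2.62% ± 0.135 of all counts in LDN, 2.16% ± 0.323 in HDN and 3.14% ± 0.273 in Naive. In this class 5 of 6 genes were higher in LDN than in HDN and 5 of 6 lower in HDN than in Naive, while 1 of 6 was higher in LDN than in Naive. As shares these were 83.3%, 83.3% and 16.7%, beside 26%, 29.9% and 27.4% of all genes tested. Levels were also divided by the length of each gene's exons, merged over all its annotated transcripts. On this scale Actb was the most abundant of the 39, at 6355 ± 668 CPM per kb in LDN, 4224 ± 1095 in HDN and 6289 ± 1104 in Naive. Tmsb4x, Coro1a and Pfn1 followed Actb in each group. Merged exons can be longer than the RNA present, so this order is approximate. Lcp1, with 9504 merged bases, ranked 7 in LDN at 651 CPM per kb.

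Actb, which encodes cytoplasmic beta-actin, stood at 15970.4, 18006, 18999 and 15122 CPM in LDN, 12251, 11572, 14198 and 7244 CPM in HDN and 21106, 16591, 15047 and 14652 CPM in Naive. HDN 7 was the lowest and Naive 1 the highest of all 12, and the LDN libraries overlapped with the Naive ones but not with HDN. Actb was 1.5-fold higher in LDN than in HDN (log2 fold change 0.59 ± 0.20 SE, edgeR adjusted p = 0.0259). HDN was lower than Naive (log2 fold change -0.57 ± 0.20 SE, edgeR adjusted p = 0.0224). The first call was lost without LDN 3, LDN 4 or LDN 5 (adjusted p = 0.0523 to 0.0856), and the second without Naive 1 (adjusted p = 0.0619). LDN and Naive were not told apart (log2 fold change 0.01 ± 0.20 SE), and the sign of that difference turned with the scaling.

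Actg1, the gene of gamma-actin, had 777, 795, 845 and 746 CPM in LDN, 569.7, 514, 589.9 and 307 CPM in HDN and 1102, 911, 759 and 806 CPM in Naive. It was higher in LDN than in HDN (log2 fold change 0.68 ± 0.18 SE, edgeR adjusted p = 0.0091) and, with no overlap, lower in HDN than in Naive (log2 fold change -0.85 ± 0.19 SE, edgeR adjusted p = 0.00128), the largest fall of the class. Against Naive, LDN differed by -0.18 ± 0.18 SE on the log2 scale, which was not called, although both other scalings of library size called it lower (adjusted p = 0.0125 with total counts and 0.00772 with trimmed library sizes). Actb and Actg1 share 88.65% of their coding bases, with up to 62 identical bases in a row, so the division of reads between them depends on how the authors counted shared reads. By that division Actg1 held 4.46% ± 0.248 of the reads of the pair in LDN, 4.19% ± 0.202 in HDN and 5.05% ± 0.199 in Naive, with every Naive library above every LDN and HDN library.

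The thymosins, short peptides that bind single actin monomers and keep them from polymerising, differed in how they moved. Their coding sequences, read from GENCODE M21 on GRCm38, are shown because they tell how far reads of one gene can be taken for the other. Both run to 135 bases, of which 95 are identical, and the capitals mark the 40 that differ. Tmsb10 lies on chromosome 6 and Tmsb4x on chromosome X.
Tmsb10: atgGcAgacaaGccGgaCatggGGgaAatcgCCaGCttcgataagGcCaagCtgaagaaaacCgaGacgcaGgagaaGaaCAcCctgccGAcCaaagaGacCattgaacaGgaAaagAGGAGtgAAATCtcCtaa
Tmsb4x: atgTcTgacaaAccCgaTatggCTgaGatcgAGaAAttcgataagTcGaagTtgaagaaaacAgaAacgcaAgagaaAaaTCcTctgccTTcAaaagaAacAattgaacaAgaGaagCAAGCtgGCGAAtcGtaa

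No run of identical bases between the 2 thymosin sequences is longer than 10. Tmsb10 had 86.5, 108, 83.1 and 98.9 CPM in LDN, 20.7, 24.95, 20.7 and 14.8 CPM in HDN and 23.6, 18.2, 20.4 and 19.7 CPM in Naive. The lowest LDN library was more than 3 times the highest HDN or Naive one, and HDN and Naive overlapped. Tmsb10 was thus 4.64-fold higher in LDN than in HDN (log2 fold change 2.21 ± 0.16 SE, edgeR adjusted p = 6.22e-07) and 4.6-fold higher in LDN than in Naive (log2 fold change 2.20 ± 0.16 SE, edgeR adjusted p = 1.39e-07). HDN over Naive gave -0.01 ± 0.16 SE (edgeR adjusted p = 0.952).

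Tmsb4x had 6918, 6131, 8099.5 and 5554 CPM in LDN, 5050.2, 4824, 5539 and 3229 CPM in HDN and 8433, 7217, 7175 and 6703 CPM in Naive. It was 1.43-fold higher in LDN than in HDN (log2 fold change 0.52 ± 0.18 SE, edgeR adjusted p = 0.0273). HDN lay below Naive (log2 fold change -0.66 ± 0.18 SE, edgeR adjusted p = 0.00522). The first call was lost without LDN 3 or LDN 5 (adjusted p = 0.0792 to 0.119) and with plain total counts and in the 2 groups alone (adjusted p = 0.0665 to 0.0742). As a share of the reads of both thymosin genes, Tmsb10 made up 1.43% ± 0.365 in LDN, 0.438% ± 0.0615 in HDN and 0.277% ± 0.0180 in Naive, and the 3 ranges did not overlap.

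Pfn1, which encodes profilin 1, the protein that recharges actin monomers and feeds them to growing ends, averaged 2207 ± 111 CPM in LDN, 1578 ± 334 in HDN and 2246 ± 428 in Naive (SD, n = 4 each). LDN levels were higher than HDN levels (log2 fold change 0.48 ± 0.17 SE, edgeR adjusted p = 0.0327). The call was lost without LDN 3, LDN 4, LDN 5, LDN 7, HDN 3 or Naive 2 (adjusted p = 0.0503 to 0.0938) and with plain total counts (adjusted p = 0.108). HDN levels of Pfn1 were lower than Naive levels (log2 fold change -0.51 ± 0.17 SE, edgeR adjusted p = 0.0198). This call was lost without Naive 1 (adjusted p = 0.0529). Coro1a, the leukocyte coronin that coats filaments, averaged 2859 ± 204 CPM in LDN, 2148 ± 463 in HDN and 2998 ± 587 in Naive. Its LDN and HDN libraries did not overlap, but the difference was called only with the replicate block (log2 fold change 0.41 ± 0.18 SE, edgeR adjusted p = 0.0706, and 0.0416 with the block). HDN was lower than Naive for Coro1a (log2 fold change -0.48 ± 0.18 SE, edgeR adjusted p = 0.0305). Significance was lost without HDN 3, Naive 1 or Naive 2 (adjusted p = 0.0555 to 0.084) and in the 2 groups alone (adjusted p = 0.0506).

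**Figure D3:**
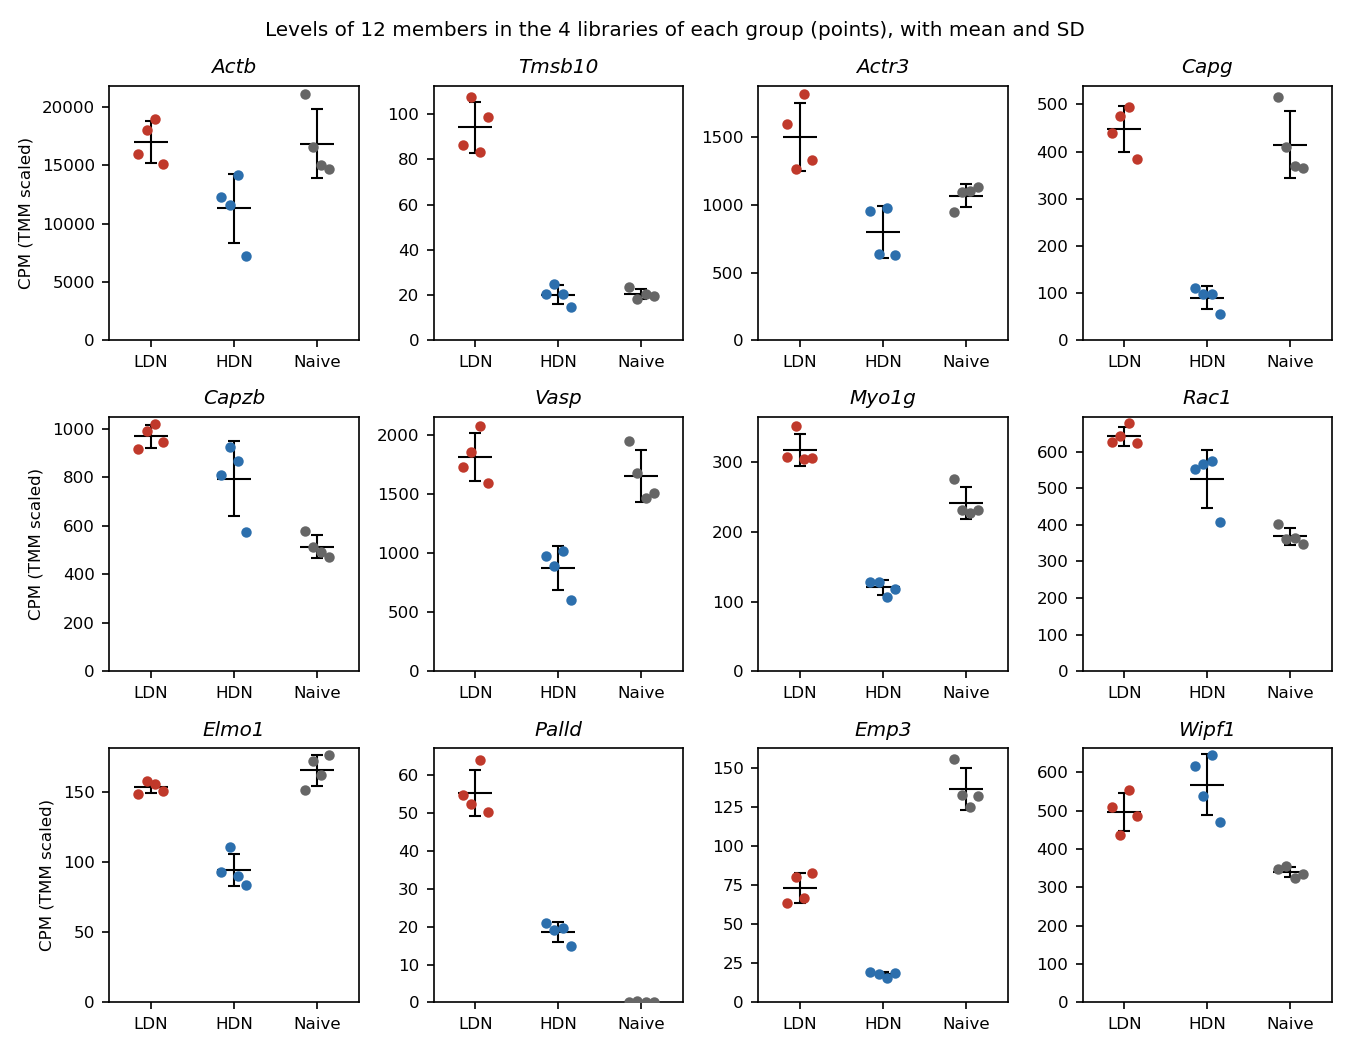
Levels of 12 genes in the 4 libraries of each group (points), with the mean (bar) and SD (whiskers), in TMM-scaled CPM on axes that start at 0. LDN points lie above all HDN points in every panel except Capzb and Wipf1, and Palld lies near 0 in Naive, at 0.0508 to 0.332 CPM.

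The Arp2/3 complex builds branched actin networks from 7 subunits, each given by 1 gene here. Its RNA was higher in LDN than in HDN for 6 of the 7 and lower for none, and higher in LDN than in Naive for 4 of the 7. In HDN against Naive 3 were lower and 4 were not called. These counts made up 85.7%, 57.1% and, for the lower genes in HDN, 42.9% of the 7. Of all genes tested, 26%, 27.4% and 29.9% were so called. The share of all counts given to the complex was 0.727% ± 0.0583 in LDN, 0.567% ± 0.0453 in HDN and 0.629% ± 0.0307 in Naive.

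Actr3, for actin-related protein 3, a core subunit that mimics an actin monomer at the branch, had 1595, 1266, 1818 and 1332 CPM in LDN, 957, 638, 975 and 633 CPM in HDN and 947, 1096, 1106 and 1131 CPM in Naive. All LDN libraries lay above all HDN and all Naive libraries, whereas HDN and Naive overlapped. Its rise in LDN over HDN was the largest of the complex (log2 fold change 0.91 ± 0.17 SE, edgeR adjusted p = 8.68e-04). LDN was also higher than Naive (log2 fold change 0.49 ± 0.17 SE, edgeR adjusted p = 0.0271). The difference from Naive was not called without LDN 3, LDN 5, Naive 1 or Naive 2 (adjusted p = 0.055 to 0.134), nor with trimmed library sizes and with plain total counts (adjusted p = 0.17 to 0.308). HDN was lower than Naive at an adjusted p close to the threshold (log2 fold change -0.42 ± 0.17 SE, edgeR adjusted p = 0.0492), which was missed without LDN 3, LDN 4, LDN 7, HDN 4, HDN 7, Naive 2, Naive 3 or Naive 4 (adjusted p = 0.0507 to 0.139) and without a filter and in the 2 groups alone (adjusted p = 0.0503 to 0.0616).

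Arpc4, a subunit of the structural core, had 395, 436, 451 and 412 CPM in LDN, 279, 310.4, 297 and 205 CPM in HDN and 414, 379, 380.1 and 345 CPM in Naive. The HDN libraries lay below all others, and LDN and Naive overlapped. Arpc4 was higher in LDN than in HDN (log2 fold change 0.63 ± 0.13 SE, edgeR adjusted p = 0.00147) and showed the largest fall of the complex in HDN against Naive (log2 fold change -0.48 ± 0.13 SE, edgeR adjusted p = 0.00598). LDN over Naive gave 0.16 ± 0.13 SE, not called.

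Arpc3, another subunit of the complex, had 811, 888, 943 and 797 CPM in LDN, 640.3, 731, 732 and 474 CPM in HDN and 603, 499.9, 494 and 475 CPM in Naive. Here the Naive libraries were lowest on average, and LDN stood above every other library. LDN was 1.66-fold higher than Naive (log2 fold change 0.73 ± 0.14 SE, edgeR adjusted p = 7.79e-04), the largest such difference of the complex, and higher than HDN (log2 fold change 0.42 ± 0.14 SE, edgeR adjusted p = 0.0303). That call against HDN was lost without LDN 3, LDN 4, LDN 5, LDN 7 or HDN 3 (adjusted p = 0.0535 to 0.107) and with plain total counts and in the 2 groups alone (adjusted p = 0.0633 to 0.193). HDN over Naive was not called (log2 fold change 0.32 ± 0.14 SE, edgeR adjusted p = 0.0744) but passed without HDN 7 or Naive 1 (adjusted p = 0.0033 to 0.0245) and with plain total counts (adjusted p = 0.00164).

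The remaining 4 subunits included Arpc1b, the regulatory subunit that predominates in blood cells, which averaged 1815 ± 146 CPM in LDN, 1150.3 ± 199 in HDN and 1305 ± 159 in Naive. It was higher in LDN than in HDN (log2 fold change 0.66 ± 0.14 SE, edgeR adjusted p = 0.00237) and than in Naive (log2 fold change 0.48 ± 0.14 SE, edgeR adjusted p = 0.0129). The second of these was lost without LDN 5 (adjusted p = 0.0554) and with trimmed library sizes (adjusted p = 0.077). Arpc2 rose in LDN likewise, by 0.57 ± 0.12 SE over HDN (edgeR adjusted p = 0.00207) and 0.37 ± 0.12 SE over Naive (adjusted p = 0.0202). The Arpc2 difference from Naive was lost without LDN 3, LDN 5 or Naive 2 (adjusted p = 0.0631 to 0.106) and with trimmed library sizes and with plain total counts (adjusted p = 0.141 to 0.456). Arpc5 was higher in LDN than in HDN (log2 fold change 0.74 ± 0.16 SE, edgeR adjusted p = 0.0021). Against Naive, HDN was lower (log2 fold change -0.42 ± 0.16 SE, edgeR adjusted p = 0.0331). That call was lost without HDN 4, HDN 7, Naive 1, Naive 2, Naive 3 or Naive 4 (adjusted p = 0.0507 to 0.0842). Actr2, for actin-related protein 2, ranged from 504 to 1052 CPM in LDN, 344 to 671 CPM in HDN and 383 to 604 CPM in Naive, and with this spread it was not called in any of the 3 comparisons. The replicate block called Actr2 higher in LDN than in HDN (log2 fold change 0.41, edgeR adjusted p = 0.0349), and LDN over Naive passed without LDN 4 or HDN 4 (adjusted p = 0.0335 and 0.035).

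Among the proteins that cap, cut or bundle filaments, the genes went different ways. In LDN over HDN 2 of 6 (Capg and Gsn) were higher and none lower, in HDN over Naive 2 were higher and 1 lower, and in LDN over Naive 4 were higher and none lower. The higher shares were 33.3%, 33.3% and 66.7%, beside 26%, 30% and 27.4% of all genes tested, so the first 2 lay near those of all genes. The class took 0.781% ± 0.150 of all counts in LDN, 0.688% ± 0.137 in HDN and 0.564% ± 0.0699 in Naive.

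Capg, whose protein caps filament ends without cutting them and is abundant in macrophages, had 438, 476, 495 and 384 CPM in LDN, 111, 97.4, 97.5 and 55.2 CPM in HDN and 516, 410.1, 369 and 365 CPM in Naive. Every HDN library lay far below every LDN and Naive library, and LDN and Naive overlapped. Capg showed the largest difference of the whole set in LDN over HDN, 4.96-fold (log2 fold change 2.31 ± 0.20 SE, edgeR adjusted p = 1.98e-06), and was 4.59-fold lower in HDN than in Naive (log2 fold change -2.20 ± 0.20 SE, edgeR adjusted p = 4.96e-07). LDN and Naive differed by 0.11 ± 0.19 SE, not called. Gsn, for gelsolin, a calcium-dependent cutter and capper of the same family, averaged 729 ± 93.5 CPM in LDN, 454 ± 147 in HDN and 637 ± 67.7 in Naive. LDN was higher than HDN (log2 fold change 0.68 ± 0.21 SE, edgeR adjusted p = 0.0182). The call was lost without LDN 4 or LDN 5 (adjusted p = 0.0541 to 0.0568) and in the 2 groups alone (adjusted p = 0.0513). For Gsn, HDN over Naive was not called (log2 fold change -0.49 ± 0.21 SE, edgeR adjusted p = 0.0614) but passed without HDN 5 (adjusted p = 0.0263) and with trimmed library sizes, with plain total counts, without a filter and by limma-voom (adjusted p = 0.00353 to 0.0494).

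The heterodimeric capping protein, made of an alpha subunit from Capza1 or Capza2 and a beta subunit from Capzb, had its lowest mean RNA levels in Naive for all 3 genes. Capzb had 916, 988, 1019.8 and 945 CPM in LDN, 809, 925, 864 and 573 CPM in HDN and 579, 512, 491 and 472 CPM in Naive. The LDN libraries lay between 916 and 1020 CPM and overlapped with the HDN libraries only through HDN 4, and both lay above Naive apart from HDN 7. LDN was 1.88-fold higher than Naive (log2 fold change 0.91 ± 0.14 SE, edgeR adjusted p = 1.08e-04) and HDN 1.54-fold higher than Naive (log2 fold change 0.63 ± 0.14 SE, edgeR adjusted p = 0.00168). LDN over HDN was not called (log2 fold change 0.29 ± 0.14 SE, edgeR adjusted p = 0.111).

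Capza2 had 287, 186, 337 and 207 CPM in LDN, 225, 144, 229.8 and 228 CPM in HDN and 103, 149, 149.7 and 151 CPM in Naive. It was higher than Naive in LDN (log2 fold change 0.88 ± 0.21 SE, edgeR adjusted p = 0.00294) and in HDN (log2 fold change 0.58 ± 0.21 SE, edgeR adjusted p = 0.0281). The HDN call was lost without HDN 3, HDN 5, HDN 7 or Naive 1 (adjusted p = 0.053 to 0.084) and with trimmed library sizes (adjusted p = 0.121). Capza1 had 353, 189, 387 and 227 CPM in LDN, 253, 117, 238 and 169 CPM in HDN and 109, 169.8, 171 and 189 CPM in Naive. It was higher in LDN than in Naive (log2 fold change 0.85 ± 0.27 SE, edgeR adjusted p = 0.0172). This call was lost without LDN 3, LDN 5 or Naive 1 (adjusted p = 0.0719 to 0.0835) and with trimmed library sizes and with plain total counts (adjusted p = 0.0848 to 0.115). For LDN over HDN neither alpha subunit was called, at 0.57 ± 0.27 SE for Capza1 (adjusted p = 0.1) and 0.30 ± 0.21 SE for Capza2 (adjusted p = 0.255), except Capza1 with the replicate block (adjusted p = 0.00291). The coding sequences of the pair share 76.89% of their bases, with up to 26 in a row, and Capza2 held 47.2% ± 2.06 of their reads in LDN, 52.2% ± 4.87 in HDN and 46.6% ± 1.59 in Naive, ranges that overlapped.

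Lcp1, for L-plastin, which bundles filaments in leukocytes, was one of the 20 most abundant genes in these libraries. It averaged 6184 ± 1794 CPM in LDN, 4649 ± 1431 in HDN and 3546 ± 509 in Naive, with a wide range of 4235 to 8226 CPM within LDN. LDN was higher than Naive (log2 fold change 0.80 ± 0.24 SE, edgeR adjusted p = 0.0128). Significance was lost without LDN 3, LDN 5 or Naive 1 (adjusted p = 0.051 to 0.0662) and with trimmed library sizes and with plain total counts (adjusted p = 0.0513 to 0.0791). LDN over HDN was not called (log2 fold change 0.41 ± 0.24 SE, edgeR adjusted p = 0.179) except with the replicate block (adjusted p = 0.029).

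Actr2, Capza1, Capza2, Lcp1 and the exchange factor gene Dock2 were the 5 genes above 10 CPM whose coefficient of variation within LDN passed 25%, a group picked after their values were seen. In LDN 4 they stood at 63.3% to 73.3% of their own group means, in HDN 4 at 60.1% to 69.6% and in Naive 1 at 68.4% to 80.7%, each the lowest library of its group for all 5. LDN 3 and LDN 5 stood at 113% to 134% of the LDN mean.

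**Figure D4:**
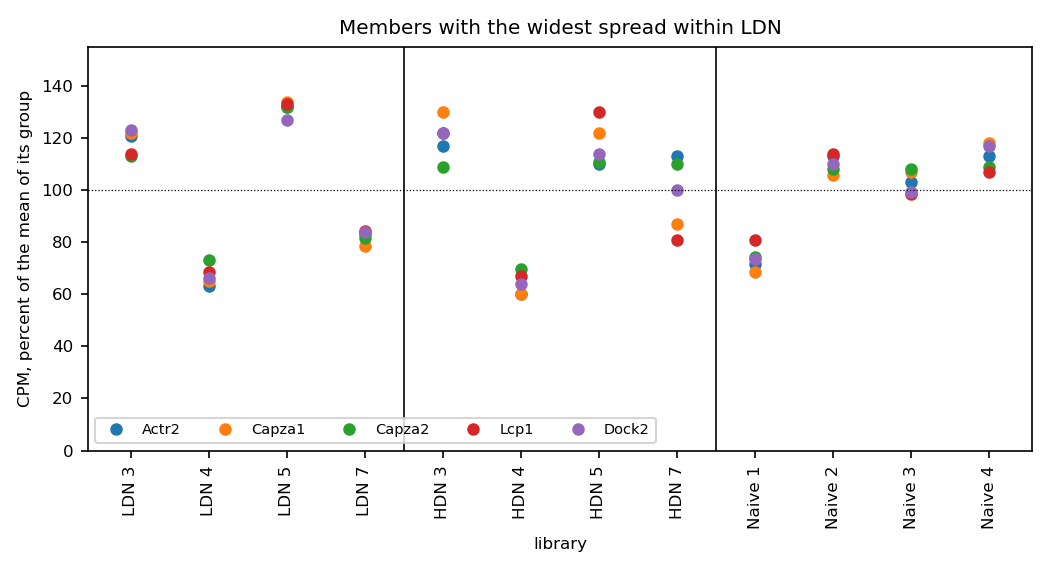
Level of Actr2, Capza1, Capza2, Lcp1 and Dock2 in each library as a percentage of the mean of the gene's own group, where the dotted line marks 100%. LDN 4, HDN 4 and Naive 1 lie at 60.1% to 80.7% for all 5 genes, below the other libraries of their groups.

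The nucleation promoters and elongators decide where and how filaments start and lengthen. In LDN over HDN 3 of 7 (Was, Vasp and Evl) were higher and none lower, in HDN over Naive 2 (Wipf1 and Diap1) were higher and 2 (Was and Vasp) lower, and in LDN over Naive 3 (Wipf1, Wasf2 and Diap1) were higher and none lower. The shares in HDN over Naive, 28.6% each way, lay near the 30% higher and 29.9% lower of all genes tested. For LDN over HDN and LDN over Naive 42.9% were higher, beside 26% and 27.4% of all genes. The share of this class among all counts was 0.491% ± 0.00626 in LDN, 0.468% ± 0.0130 in HDN and 0.492% ± 0.0188 in Naive.

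Vasp, which encodes a protein that rides on growing filament ends and shields them from capping, had 1725, 1855, 2075 and 1593 CPM in LDN, 979, 889, 1017 and 606 CPM in HDN and 1946, 1674, 1466 and 1505 CPM in Naive. The HDN libraries were well below both other groups, which overlapped. Vasp was 2.08-fold higher in LDN than in HDN (log2 fold change 1.05 ± 0.17 SE, edgeR adjusted p = 2.16e-04) and 1.89-fold lower in HDN than in Naive (log2 fold change -0.92 ± 0.17 SE, edgeR adjusted p = 3.05e-04). LDN over Naive gave 0.14 ± 0.16 SE, not called. Its relative Evl was scarce, with 41 to 100 reads per library in LDN, 9 to 44 in HDN and 26 to 42 in Naive. In level it had 4.18, 2.26, 2.76 and 1.91 CPM in LDN, 0.436, 1.40, 1.29 and 0.343 CPM in HDN and 0.994, 1.55, 1.98 and 1.67 CPM in Naive, where LDN stood above HDN without overlap and Naive overlapped with both. LDN over HDN was called (log2 fold change 1.65 ± 0.42 SE, edgeR adjusted p = 0.00595), and the ratio of summed reads was 3.07 with an exact 95% interval of 2.41 to 3.92 that covers counting error only. Evl was not called in the other comparisons, but passed without HDN 4 (adjusted p = 0.0452) for HDN over Naive, and without HDN 7 (adjusted p = 0.0485) and in the 2 groups alone (adjusted p = 0.0298) for LDN over Naive.

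Was and Wipf1 encode partners, the Arp2/3 activator WASP and the protein WIP that binds and stabilises it, and their RNAs differed between the groups in different ways. Was averaged 342 ± 19.3 CPM in LDN, 248 ± 42.6 in HDN and 364 ± 34.2 in Naive. In LDN it exceeded HDN (log2 fold change 0.47 ± 0.13 SE, edgeR adjusted p = 0.0106), though not with plain total counts (adjusted p = 0.0719). Was was lower in HDN than in Naive (log2 fold change -0.55 ± 0.13 SE, edgeR adjusted p = 0.00237). Wipf1 had 509.8, 437, 553 and 485 CPM in LDN, 616, 539, 646 and 470.2 CPM in HDN and 347, 355, 323 and 334 CPM in Naive. Every blood library, LDN and HDN alike, lay above every Naive library. HDN was 1.67-fold higher than Naive (log2 fold change 0.74 ± 0.12 SE, edgeR adjusted p = 1.23e-04) and LDN 1.46-fold higher than Naive (log2 fold change 0.55 ± 0.12 SE, edgeR adjusted p = 0.00168). For LDN over HDN the Wipf1 difference was -0.19 ± 0.12 SE and not called, but it passed as lower in LDN with plain total counts (adjusted p = 3.84e-04), with trimmed library sizes (adjusted p = 0.00588) and without HDN 7 (adjusted p = 0.0439).

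Diap1, the formin known as mDia1 and listed as Diaph1 in RefSeq, averaged 844 ± 55.04 CPM in LDN, 967 ± 76.2 in HDN and 679 ± 32.1 in Naive. It was higher in HDN than in Naive (log2 fold change 0.51 ± 0.10 SE, edgeR adjusted p = 7.47e-04) and in LDN than in Naive (log2 fold change 0.31 ± 0.10 SE, edgeR adjusted p = 0.0197). The Diap1 call for LDN was lost without LDN 3, LDN 5, LDN 7, Naive 1 or Naive 3 (adjusted p = 0.0558 to 0.11) and with trimmed library sizes, with plain total counts and without a filter (adjusted p = 0.0671 to 0.85). LDN over HDN was -0.20 ± 0.10 SE (edgeR adjusted p = 0.135). It passed as lower without LDN 7, HDN 7 or Naive 1 (adjusted p = 0.0361 to 0.0474), by DESeq2 (adjusted p = 0.0277) and under both other scalings of library size (adjusted p = 4.32e-04 and 0.00383). Wasf2, which encodes the Arp2/3 activator WAVE2, was higher in LDN than in Naive (log2 fold change 0.32 ± 0.09 SE, edgeR adjusted p = 0.0102), though not with trimmed library sizes and with plain total counts (adjusted p = 0.279 to 0.734). Its LDN and HDN libraries did not overlap, without a call (log2 fold change 0.16 ± 0.09 SE, edgeR adjusted p = 0.184). Fmnl1, a leukocyte formin, was not called in any comparison with TMM scaling of all libraries, at 1606 to 1796 CPM in LDN, 1091 to 1450 CPM in HDN and 1267 to 1728 CPM in Naive, but it passed as lower in HDN than in Naive with trimmed library sizes (adjusted p = 0.0237) and as higher in LDN than in Naive without Naive 1 (adjusted p = 0.0477).

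Most myosin genes were low in HDN. In LDN over HDN 5 of 6 were higher, in HDN over Naive 5 of 6 were lower, and in LDN over Naive only Myo1g was higher. As shares these were 83.3%, 83.3% and 16.7%, beside 26%, 29.9% and 27.4% of all genes tested. The myosin share of all counts was 0.764% ± 0.0119 in LDN, 0.564% ± 0.0548 in HDN and 0.921% ± 0.0338 in Naive, with no overlap between groups.

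Myo1g, a class I myosin that links the membrane of blood cells to actin, had 307, 352, 304 and 306 CPM in LDN, 128, 128, 106 and 118 CPM in HDN and 275, 231, 226 and 231 CPM in Naive. The LDN libraries were the highest, the Naive ones in the middle and the HDN ones the lowest, with no overlap. Myo1g was 2.64-fold higher in LDN than in HDN (log2 fold change 1.40 ± 0.11 SE, edgeR adjusted p = 1.03e-06) and 2-fold lower in HDN than in Naive (log2 fold change -1.003 ± 0.11 SE, edgeR adjusted p = 2.90e-06). It was 1.32-fold higher in LDN than in Naive (log2 fold change 0.40 ± 0.11 SE, edgeR adjusted p = 0.00682), though not with trimmed library sizes and with plain total counts (adjusted p = 0.186 to 0.381). Its relative Myo1f was higher in LDN than in HDN (log2 fold change 0.48 ± 0.14 SE, edgeR adjusted p = 0.0133). That call was lost without LDN 5 (adjusted p = 0.0637) and with plain total counts (adjusted p = 0.0515). Myo1f was lower in HDN than in Naive (log2 fold change -0.39 ± 0.14 SE, edgeR adjusted p = 0.0257). The call was lost without HDN 4 or Naive 1 (adjusted p = 0.0534 to 0.0599).

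Myh9, the heavy chain of nonmuscle myosin IIA, the motor that contracts the cell rear, had 5145, 5007, 5600.2 and 4837 CPM in LDN, 3301, 2814, 3152 and 1946 CPM in HDN and 5551, 5329, 5385 and 5729 CPM in Naive. No HDN library reached the lowest LDN or Naive library. It was 1.84-fold higher in LDN than in HDN (log2 fold change 0.88 ± 0.15 SE, edgeR adjusted p = 4.75e-04) and 1.96-fold lower in HDN than in Naive (log2 fold change -0.97 ± 0.15 SE, edgeR adjusted p = 9.70e-05). Myl6, the essential light chain of that motor, followed it with 1.87-fold more in LDN than in HDN (log2 fold change 0.91 ± 0.16 SE, edgeR adjusted p = 4.98e-04) and less in HDN than in Naive (log2 fold change -0.61 ± 0.16 SE, edgeR adjusted p = 0.00457).

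The regulatory light chains come from Myl12a and Myl12b, whose coding sequences share 96.53% of their 519 bases with up to 105 in a row, so that their separate counts are uncertain. Myl12a had 288, 295, 346 and 262 CPM in LDN, 195, 209, 214 and 137 CPM in HDN and 391, 328, 318 and 316 CPM in Naive. LDN levels were higher than HDN levels (log2 fold change 0.66 ± 0.15 SE, edgeR adjusted p = 0.00283). HDN fell below Naive (log2 fold change -0.84 ± 0.15 SE, edgeR adjusted p = 2.51e-04), with no overlap in either. Myl12b had 745, 893, 829 and 829 CPM in LDN, 738, 879, 777 and 535 CPM in HDN and 1096, 892, 816 and 810.0 CPM in Naive. It was not called for LDN over HDN (log2 fold change 0.17 ± 0.15 SE, edgeR adjusted p = 0.383) nor for HDN over Naive (log2 fold change -0.30 ± 0.15 SE, edgeR adjusted p = 0.104), although HDN over Naive passed without HDN 4 (adjusted p = 0.0456) and with trimmed library sizes and with plain total counts (adjusted p = 0.0019 to 0.0479). Myl12b held 73.5% ± 2.55 of the reads of the pair in LDN, 79.5% ± 1.02 in HDN and 72.7% ± 0.866 in Naive, with every HDN library above every LDN and Naive library.

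**Figure D5:**
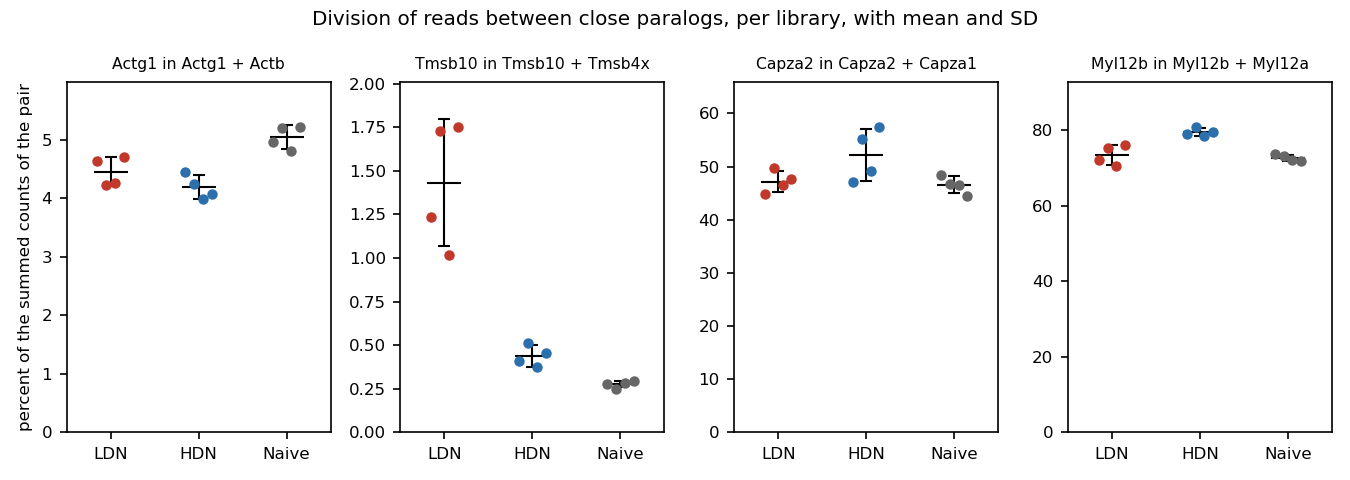
Share of reads, in percent of the summed counts of each pair, held by Actg1, Tmsb10, Capza2 and Myl12b against Actb, Tmsb4x, Capza1 and Myl12a in each library (points), with mean and SD. Tmsb10 reaches 1.02% to 1.75% in LDN and stays under 0.515% elsewhere, and Myl12b is higher in all HDN libraries than in any other.

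The small GTPases and their activators were higher in LDN than in Naive for 4 of 5. In LDN over HDN 2 of 5 (Cdc42 and Elmo1) were higher and none lower, in HDN over Naive 2 (Rac1 and Rhoa) were higher and 1 (Elmo1) lower, and in LDN over Naive none was lower. The higher shares were 40% in LDN over HDN, 40% in HDN over Naive and 80% in LDN over Naive. Of all genes tested, 26%, 30% and 27.4% were so called. The share of this class among all counts was 0.299% ± 0.0126 in LDN, 0.311% ± 0.00780 in HDN and 0.243% ± 0.0174 in Naive. Without the 20 most abundant genes in the denominator, LDN lay above HDN instead, at a ratio of 1.07.

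Rac1, a GTPase that drives protrusion, had 625, 642, 678 and 622 CPM in LDN, 551, 567, 574 and 408 CPM in HDN and 403, 361, 365 and 347 CPM in Naive. All blood libraries lay above all Naive ones. LDN was 1.74-fold higher than Naive (log2 fold change 0.80 ± 0.12 SE, edgeR adjusted p = 8.08e-05) and HDN 1.43-fold higher than Naive (log2 fold change 0.51 ± 0.12 SE, edgeR adjusted p = 0.00222). LDN over HDN was not called although those libraries did not overlap (log2 fold change 0.29 ± 0.12 SE, edgeR adjusted p = 0.0622). Cdc42, which sets polarity, was higher in LDN than in Naive (log2 fold change 0.60 ± 0.12 SE, edgeR adjusted p = 0.00103) and than in HDN (log2 fold change 0.35 ± 0.12 SE, edgeR adjusted p = 0.0305). Its call over HDN was lost without LDN 3, LDN 4, LDN 5, LDN 7, HDN 4 or Naive 1 (adjusted p = 0.0529 to 0.154) and with DESeq2's size factors, with plain total counts, without a filter and in the 2 groups alone (adjusted p = 0.0541 to 0.536). Rhoa, which signals to myosin at the rear, averaged 888 ± 70.4 CPM in LDN, 898 ± 101 in HDN and 707 ± 13.7 in Naive. It was higher than Naive in HDN (log2 fold change 0.34 ± 0.11 SE, edgeR adjusted p = 0.0153) and in LDN (log2 fold change 0.33 ± 0.11 SE, edgeR adjusted p = 0.0214). The Rhoa call for HDN was lost without Naive 2 (adjusted p = 0.0587) and with trimmed library sizes (adjusted p = 0.0904). The Rhoa call for LDN was lost without LDN 4, LDN 7, Naive 2 or Naive 4 (adjusted p = 0.0519 to 0.108) and with trimmed library sizes, with plain total counts and without a filter (adjusted p = 0.0587 to 0.761).

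Elmo1, a scaffold that works with DOCK proteins to load Rac with GTP, had 149, 158, 156 and 151 CPM in LDN, 93.4, 111, 90.1 and 83.8 CPM in HDN and 152, 172, 162 and 177 CPM in Naive. The HDN libraries were below all others, which overlapped. Elmo1 was 1.62-fold higher in LDN than in HDN (log2 fold change 0.70 ± 0.11 SE, edgeR adjusted p = 1.53e-04) and 1.75-fold lower in HDN than in Naive (log2 fold change -0.81 ± 0.11 SE, edgeR adjusted p = 1.71e-05). Its partner Dock2, the main Rac exchange factor of leukocytes, averaged 429.6 ± 128 CPM in LDN, 364 ± 92.8 in HDN and 262 ± 49.7 in Naive. Dock2 was higher in LDN than in Naive (log2 fold change 0.71 ± 0.24 SE, edgeR adjusted p = 0.0214). This call was lost without LDN 3, LDN 5 or Naive 1 (adjusted p = 0.0987 to 0.103) and with trimmed library sizes and with plain total counts (adjusted p = 0.136 to 0.185). For Dock2, HDN over Naive was not called, but passed without HDN 4 (adjusted p = 0.0224, against 0.101 with it).

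Palld encodes palladin, a scaffold that crosslinks actin filaments. It had 54.7, 52.4, 63.9 and 50.3 CPM in LDN, 20.9, 19.1, 19.7 and 14.8 CPM in HDN and 0.229, 0.332, 0.0508 and 0.202 CPM in Naive. Naive libraries 1 to 4 held 6, 9, 1 and 4 reads, so that Naive 3 lay under the floor of 3 reads per library, while the LDN libraries held 1080 to 1311 and the HDN libraries 387 to 600. The ratio of summed reads per scaled library size was 256 for LDN over Naive, with an exact 95% interval of 165 to 419, and 85.9 for HDN over Naive, with an interval of 55.5 to 141, covering counting error only. Both were called (edgeR adjusted p = 2.28e-10 and 6.86e-10). Within blood, Palld was 2.97-fold higher in LDN than in HDN (log2 fold change 1.57 ± 0.19 SE, edgeR adjusted p = 2.58e-05), with no overlap.

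Emp3, a small membrane protein gene of the PMP22 family, ran the other way between blood and marrow. It had 63.3, 80.04, 66.9 and 82.4 CPM in LDN, 19.2, 18.3, 15.7 and 18.5 CPM in HDN and 156, 133, 125 and 132 CPM in Naive. The Naive libraries were the highest, LDN intermediate and HDN lowest, with no overlap. Emp3 was 7.59-fold lower in HDN than in Naive (log2 fold change -2.92 ± 0.13 SE, edgeR adjusted p = 9.00e-10) and 1.86-fold lower in LDN than in Naive (log2 fold change -0.90 ± 0.12 SE, edgeR adjusted p = 3.29e-05). Within blood it was 4.08-fold higher in LDN than in HDN (log2 fold change 2.03 ± 0.13 SE, edgeR adjusted p = 2.71e-07).

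Promoters were read because many actin genes are known to be driven by serum response factor through the CArG box, a motif of 10 letters searched here by its consensus, which reads the same on both strands. RefSeq promoter windows on GRCm38.p6, from 250 bases before to 50 after each gene's start, were given for 36 of the 39 genes, not for Actb, Diap1 and Rac1. The box was in the window of 3 of them (8.33%), against 1.81% of 27025 genes with windows, or 3 of 51 windows (5.88%) against 1.63% of 32851. It starts 250 bases before the start of Arpc4, 50 before that of Myl6 and 90 before that of Actg1. Each of the 3 genes was higher in LDN than in HDN, lower in HDN than in Naive and not called in LDN over Naive. This combination was common in the set, being that of 14 of the 39 genes. The 250 bases upstream of the 3 genes, on the strand of the gene, are shown with the box in capitals.
Arpc4, chr6:113377863-113378112, plus strand: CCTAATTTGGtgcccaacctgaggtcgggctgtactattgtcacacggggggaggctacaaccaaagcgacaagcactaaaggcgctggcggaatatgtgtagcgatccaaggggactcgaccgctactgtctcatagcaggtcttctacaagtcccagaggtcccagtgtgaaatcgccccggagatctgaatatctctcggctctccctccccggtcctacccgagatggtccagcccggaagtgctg
Myl6, chr10:128493010-128493259, minus strand: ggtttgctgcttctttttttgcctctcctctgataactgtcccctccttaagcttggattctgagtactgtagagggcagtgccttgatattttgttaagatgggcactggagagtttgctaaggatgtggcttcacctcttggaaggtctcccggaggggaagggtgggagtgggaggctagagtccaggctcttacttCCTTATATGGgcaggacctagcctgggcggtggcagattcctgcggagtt
Actg1, chr11:120348496-120348745, minus strand: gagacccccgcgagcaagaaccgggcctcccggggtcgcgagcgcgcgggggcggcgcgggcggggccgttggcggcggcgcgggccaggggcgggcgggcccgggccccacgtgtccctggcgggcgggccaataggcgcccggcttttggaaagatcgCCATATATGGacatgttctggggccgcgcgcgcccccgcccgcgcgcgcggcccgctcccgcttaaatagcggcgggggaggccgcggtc

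For these 3 genes the fitted log2 fold changes were 0.63, 0.91 and 0.68 in LDN over HDN, in the order Arpc4, Myl6 and Actg1. In HDN over Naive they were -0.48, -0.61 and -0.85. Both comparisons use the same HDN libraries. A match of letters is a description of the sequence only, and binding was not measured.

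A wider list of 100 other actin cytoskeleton genes, compiled by function, had rows for 94, of which 80 passed the filter on low counts. In LDN over HDN 33 (41.2%) were higher and 13 (16.2%) lower, where 26% of all genes tested were higher and 20.3% lower, and the median log2 fold change was 0.28. In HDN over Naive 22 (27.5%) were higher and 28 (35%) lower, where 30% and 29.9% of all genes were, with a median of -0.16. In LDN over Naive 26 (32.5%) were higher and 14 (17.5%) lower, where 27.4% and 26.8% of all genes were, with a median of 0.21. The shares in HDN over Naive and the higher share in LDN over Naive thus lay near those of all genes. With plain total counts, 25 were higher and 22 lower in LDN than in HDN. With trimmed library sizes, 18 were higher and 27 lower in LDN than in Naive.

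Rac2, the Rac of blood cells that neutrophils depend on, had 3104, 3439, 3443 and 2981 CPM in LDN, 2429, 2492, 2651 and 1410.1 CPM in HDN and 3324, 2733, 2431 and 2479.6 CPM in Naive. It was higher in LDN than in HDN (log2 fold change 0.53 ± 0.18 SE, edgeR adjusted p = 0.0293). Significance was lost without LDN 3, LDN 4, LDN 5 or LDN 7 (adjusted p = 0.0511 to 0.0828) and with plain total counts and in the 2 groups alone (adjusted p = 0.0589 to 0.0718). Rac2 was not called against Naive in HDN (adjusted p = 0.189) or in LDN (adjusted p = 0.282), but passed as lower in HDN with trimmed library sizes (adjusted p = 0.00624). Tiam1, an activator of Rac, averaged 18.7 ± 1.75 CPM in LDN, 5.65 ± 0.612 in HDN and 83.7 ± 17.9 in Naive. It was higher in LDN than in HDN (log2 fold change 1.73 ± 0.17 SE, edgeR adjusted p = 4.22e-06) but lower than Naive in LDN (log2 fold change -2.16, adjusted p = 1.86e-07) and in HDN (log2 fold change -3.89, adjusted p = 1.14e-09). Elmo2, a relative of Elmo1, was higher than Naive in HDN (log2 fold change 1.45 ± 0.24 SE, edgeR adjusted p = 1.35e-04) and in LDN (log2 fold change 1.22 ± 0.24 SE, edgeR adjusted p = 6.83e-04).

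Coro7, a coronin of the Golgi, stood at 250.4 ± 20.4 CPM in LDN, 65.4 ± 14.7 in HDN and 259 ± 17.4 in Naive, higher in LDN than in HDN (log2 fold change 1.94 ± 0.16 SE, edgeR adjusted p = 1.37e-06). Vcl (vinculin) and Actn1 (alpha-actinin 1), which tie filaments to adhesions and to each other, were also higher in LDN than in HDN, by 1.35 ± 0.20 and 1.26 ± 0.21 SE on the log2 scale (edgeR adjusted p = 1.40e-04 and 3.23e-04), and lower in HDN than in Naive, with log2 fold changes of -1.73 ± 0.20 and -1.08 ± 0.21 SE (adjusted p = 6.35e-06 and 5.03e-04). The formin gene Fmnl3 was higher in LDN than in HDN (log2 fold change 1.33 ± 0.19 SE, edgeR adjusted p = 8.34e-05). In HDN the level was lower than in Naive (log2 fold change -2.72 ± 0.19 SE, edgeR adjusted p = 4.90e-08). Its relative Fmnl2 was lower in LDN than in HDN (log2 fold change -1.79 ± 0.63 SE, edgeR adjusted p = 0.0331). That call was lost without LDN 3, LDN 4, LDN 5 or HDN 7 (adjusted p = 0.0643 to 0.209) and without a filter, by limma-voom and in the 2 groups alone (adjusted p = 0.0734 to 0.17), and its log2 fold change was -0.77 without HDN 7. Fmnl2 was far lower in LDN than in Naive (log2 fold change -4.25 ± 0.67 SE, edgeR adjusted p = 1.28e-04).

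Several genes of the wider list were lower in LDN than in HDN. Ssh2, a phosphatase that activates cofilin, averaged 415 ± 95.9 CPM in LDN, 784 ± 203 in HDN and 258 ± 23.1 in Naive (log2 fold change -0.92 ± 0.21 SE, edgeR adjusted p = 0.00284 for LDN over HDN). Ezr (ezrin), which ties actin to the membrane, was lower with a log2 fold change of -0.59 ± 0.19 SE (edgeR adjusted p = 0.0203). The call was lost without HDN 4 (adjusted p = 0.0631). Myo9b, an unconventional myosin, and Arpc5l, an alternative Arp2/3 subunit, were lower with log2 fold changes of -0.48 ± 0.11 and -0.39 ± 0.12 SE (adjusted p = 0.00287 and 0.0199). Myo5a, a cargo-carrying myosin, was higher in LDN than in HDN (log2 fold change 1.13 ± 0.37 SE, edgeR adjusted p = 0.0236). This call was lost without LDN 3, LDN 5 or HDN 5 (adjusted p = 0.0619 to 0.103) and with trimmed library sizes, with plain total counts, without a filter and in the 2 groups alone (adjusted p = 0.0635 to 0.157). Myo5a was lower in HDN than in Naive (log2 fold change -1.52 ± 0.37 SE, edgeR adjusted p = 0.00311).

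Other genes of the wider list differed between Naive and at least a single blood fraction. Zyx (zyxin), an adhesion protein that recruits Vasp, was higher than Naive in HDN (log2 fold change 1.42 ± 0.16 SE, edgeR adjusted p = 5.48e-06) and in LDN (log2 fold change 0.99 ± 0.16 SE, edgeR adjusted p = 1.85e-04). Tmod3, which caps the slow-growing filament end, was higher than Naive in HDN and in LDN, by 1.36 ± 0.23 and 1.38 ± 0.23 SE (edgeR adjusted p = 1.95e-04 and 2.28e-04). Ssh2 was higher in HDN than in Naive (log2 fold change 1.61 ± 0.21 SE, edgeR adjusted p = 1.81e-05), as was Abi3, a gene of the WAVE regulator family (log2 fold change 1.29 ± 0.19 SE, edgeR adjusted p = 5.86e-05), and Arpc5l (log2 fold change 0.35 ± 0.12 SE, edgeR adjusted p = 0.0256). The Arpc5l call was lost without HDN 4, HDN 5, Naive 2 or Naive 4 (adjusted p = 0.0524 to 0.0663) and with trimmed library sizes (adjusted p = 0.201). In LDN over Naive, Cyfip1, a subunit of the WAVE complex (log2 fold change 1.93 ± 0.24 SE, edgeR adjusted p = 1.56e-05), the coronin gene Coro1c (log2 fold change 1.39 ± 0.18 SE, edgeR adjusted p = 2.32e-05) and Myo1c (log2 fold change 0.52 ± 0.09 SE, edgeR adjusted p = 3.90e-04) were higher. The Myo1c call was lost with trimmed library sizes (adjusted p = 0.0546), where its log2 fold change was 0.23. Rock1, a kinase that activates myosin (log2 fold change -1.87 ± 0.36 SE, edgeR adjusted p = 5.59e-04), and Actn4 (log2 fold change -0.28 ± 0.10 SE, edgeR adjusted p = 0.0348) were lower in LDN than in Naive, the call of Actn4 being lost without HDN 3, Naive 2, Naive 3 or Naive 4 (adjusted p = 0.0512 to 0.0857).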

How the data were processed

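RNA was extracted with TRIzol and RNeasy columns and made into KAPA stranded poly(A) libraries, per the labels' protocols. The authors deposited raw counts per gene. The submitters' processing notes name CASAVA 1.8.2, Trimmomatic, STAR and DESeq2 1.16.1, while genome build, annotation and strand setting were not given in the sources used here. The authors' own comparison tables were not used.

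Counts were analysed with edgeR 4.0.16 (limma 3.58.1, R 4.3.3): filterByExpr kept 10604 of 15762 genes with reads, libraries were scaled by TMM, and a robust quasi-likelihood fit to all 12 libraries had group as its only term. P-values were adjusted by Benjamini-Hochberg over all genes tested, and the fit was tested on simulated data. Alternatives were DESeq2 1.42.0, limma-voom, other scalings, no filter, the 2 groups alone, a replicate block and leaving out each library. For the replicate block, library numbers shared by LDN and HDN were taken to pair them, which the labels do not state. Deviations from group means correlated at r 0.31 to 0.76 for same-numbered libraries and -0.61 to 0.41 for other pairs. These ranges overlap, and HDN 3 was closer to LDN 5 (r 0.41) than to LDN 3 (r 0.39). Replicates differed by more than counting noise. The genes and lists were chosen with earlier results of these data known. Values in every library are given for the called gene of each class with the largest change in each comparison, and for 4 pairs of similar genes. Other genes of the actin cytoskeleton set are given by role, and Myh9 and Rac2 were added after their values were seen. Genes of the wider list were named by size of change, not by role. They had the largest called rise or fall of their class in a comparison, among the more abundant genes. Scarcer genes with larger changes were left out. Log2 fold changes reached 4.09 among its myosin genes in LDN over Naive and -3.82 among its capping genes in LDN over HDN. With 18113922 to 30044508 counts per library, low genes such as Evl and Palld were limited by counting error, and intervals cover that error only.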

Additional observations from a re-analysis of the deposited data

Results flagged for a closer look

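In 9 of 153 groups of 4 libraries, 1 library stood far from the others of its group by Dixon's test, where chance flags about 1 in 20 groups. Of these, 4 fell in Naive 1, 2 in HDN 4, 2 in HDN 7 and 1 in LDN 4.

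HDN 4 was low for Actr2 at 344 CPM, against 629 to 671 CPM in the other HDN libraries, and for Capza2 at 144 CPM, against 225 to 229.8 CPM. HDN 7 was low for Fmnl1 at 1091 CPM, against 1415 to 1449.5 CPM, and for Rac1 at 408 CPM, against 551 to 574 CPM.

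Naive 1 was low for Capza2 at 103 CPM, against 149 to 151 CPM in the other Naive libraries. It was high for Gsn at 739 CPM, against 599.7 to 606 CPM, for Myl12a at 391 CPM, against 316 to 328 CPM, and for Myo1g at 275 CPM, against 226 to 231 CPM. LDN 4 was high for Myo1g at 352 CPM, against 304 to 307 CPM in the other LDN libraries.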

How the results depend on the processing

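For LDN over HDN the count of the 39 genes higher in LDN stayed within 1.5 times of 25 under every scaling, filter, tool, replicate block and left-out library tried. The count lower in LDN was 0, and became 2 without the 20 most abundant genes in the library sizes, 3 with total counts, a scaling chosen after seeing the data, 1 with DESeq2 and 0 to 2 when 1 library was left out. With total counts the median was 0.28 and 22 genes of the wider list were lower. The replicate block called 29 higher and changed no call among the 39 other than the 4 it added.

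For LDN over Naive, library sizes without the 20 most abundant genes gave 8 higher and 10 lower, 27 lower in the wider list and a median of 0.020. Total counts gave 9 higher, 9 lower, 24 lower in the wider list and a median of 0.083. Leaving out 1 library gave 11 to 21 higher.

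Ratios of class shares of all counts moved when the 20 most abundant genes left the denominator. All classes together gave 0.684 for HDN over Naive. Arp2/3 gave 1.43 for LDN over HDN and 0.776 for HDN over Naive, and myosin 1.51, 0.527 and 0.794 for LDN over HDN, HDN over Naive and LDN over Naive. Nucleation promoters gave 1.17, 0.819 and 0.956 in that order. The GTPases gave 1.07 for LDN over HDN and 1.10 for HDN over Naive, and Palld and Emp3 together gave 3.19 and 0.242. For the GTPases this turned the direction of LDN over HDN, as their shares of all counts were 0.299% in LDN and 0.311% in HDN.

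Some log2 fold changes of single genes turned sign. For LDN over HDN total counts gave Capza2 -0.018, Wasf2 -0.14, Myl12b -0.11 and Dock2 -0.069. With 1 library left out, Rhoa was -0.12 to 0.058. For HDN over Naive, Actr2 was -0.054 without the 20 most abundant genes and -0.018 to 0.28 with 1 library left out. Tmsb10 was 0.043 with total counts and -0.12 to 0.12 with 1 library left out, as Fmnl1 was -0.14 to 0.031. For LDN over Naive, Actb was -0.037 with the size factors of DESeq2, -0.27 without the 20 most abundant genes, -0.21 with total counts, -0.030 without a filter, -0.032 by DESeq2 and -0.0068 in the 2 groups alone. Without the 20 most abundant genes, Arpc4 was -0.14, Capg -0.18, Gsn -0.099, Vasp -0.15, Fmnl1 -0.040, Myo1f -0.21 and Rac2 -0.046. Total counts gave Arpc4 -0.073, Capg -0.11, Gsn -0.037, Vasp -0.092 and Myo1f -0.15. With 1 library left out, the ranges were -0.093 to 0.090 for Actb, -0.10 to 0.062 for Pfn1, -0.17 to 0.019 for Coro1a and -0.029 to 0.090 for Myo1f. The cause of these changes was not tested.

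Across all leave-outs 18 of 25 calls remained for LDN over HDN, 17 of 25 for HDN over Naive and 11 of 19 for LDN over Naive.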
